A study of Rattus norvegicus with 6 samples.

Results

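Solute carriers that move nutrients and metabolites across membranes were compared between rat endometrial epithelial organoids (rEEOs) and rat bone marrow mesenchymal stem cells (rBMSCs). The set was taken by gene symbol, as the Slc families for sugars, amino acids, monocarboxylates, organic ions, phosphate, zinc, vitamins, peptides, nucleosides and fatty acids together with the Slco genes. In the copy of the expression table used here, 144 of 13728 genes carried such a symbol. The 117 of them whose counts summed to at least 10 over the 6 libraries form the set, and the other 27 were left out.

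Bulk RNA-seq libraries came from 3 rEEOs samples and 3 rBMSCs samples. rEEOs were grown from uterine glandular fragments of female Sprague–Dawley rats aged 5 weeks, in Matrigel under expansion medium with Wnt3a, R-Spondin-1, noggin, the inhibitors Y27632 and A83-01, fibroblast growth factor 10 and epidermal growth factor, nicotinamide, N2, B27 and insulin-transferrin-selenium. rBMSCs were a purchased product labeled with red fluorescent protein and were grown in dishes with fetal bovine serum. The base medium of both was DMEM/F12. The strain, sex and age of the rBMSCs donor are not given in the sources used here, so cell type, donor and culture cannot be told apart. Nothing in the labels says that replicates were separate animals or cultures, and p-values therefore measure only the spread between these samples. In bulk RNA, fewer cells of a type and less RNA per cell cannot be told apart either.

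Solute carriers are membrane proteins that let small molecules cross by facilitated diffusion, by exchange, or by coupling to sodium or protons. Epithelial cells place different carriers on their apical and basolateral faces and so move nutrients from one side to the other. In the uterus, glands secrete sugars, amino acids and other small molecules into the lumen, where they feed the early embryo.

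Libraries held 14892115 to 15421501 counts in rBMSCs and 10457958 to 13883993 in rEEOs. All 13 epithelial markers were higher in rEEOs, with a summed level of 3.11 to 3.70 TPM, the length-normalized transcript level, in rBMSCs and 5676 to 6522 TPM in rEEOs, and Epcam and Cdh1 were at 0 in rBMSCs. Of 13 mesenchymal markers, 11 of 12 tested were lower in rEEOs, with a summed level of 42613 to 45017 TPM in rBMSCs. In rEEOs the sum was 172 to 300 TPM, nearly all of it Vim, and Pdgfrb, Thy1, Lum and Dcn were at 0. Endothelial markers summed to at most 0.34 TPM and blood and macrophage markers to at most 1.64 TPM in a library of rEEOs. Endothelial markers summed to 9.37 to 10.9 TPM in rBMSCs, nearly all of it Erg, and the 2 that could be tested, Erg and Tek, were both called lower in rEEOs. Of the 3 fat markers held, Fabp4 stood at 9.96, 103 and 137 TPM in rEEOs and was called higher. Plin1 was at 0 counts there and Cidec reached at most 0.29 TPM. The part of other cell types in the results was not tested. rEEOs replicate 1 stood apart: the median SD of log2(CPM + 1) over genes was 0.34 in rEEOs, 0.16 without that replicate, and 0.09 in rBMSCs.

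The share of transporter genes called different between the cell types lay above that of all genes tested, by more for higher than for lower calls. Of the 117 genes, 100 had at least 10 counts in at least 3 libraries and were tested, and 17 were not. A call needed an adjusted p below 0.05 in edgeR's quasi-likelihood test with Benjamini-Hochberg adjustment over all 10607 genes tested, and an absolute log2 fold change above 2. In rEEOs compared to rBMSCs, 31 transporter genes were called higher (31%, against 16.3% of all genes tested) and 19 lower (19%, against 13.3%). Together that was 50 of 100 (50%, against 29.7%). The 19 called lower became 16 with library size only, 17 without rEEOs replicate 2 and 22 without rEEOs replicate 1. By adjusted p alone, 43 were higher and 35 lower, against 63.4% of all genes in either direction. The median log2 fold change was -0.05 over the tested transporters and 0.08 over all genes. These shares are a description, since 22 of the 100 passed the filter on low counts through rEEOs alone and had fewer than 10 counts in every rBMSCs library, and 9 passed through rBMSCs alone. Over all genes tested the shares were 9.61% and 5.84%.

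Calls are given by substrate class, to be read beside the 16.3% called higher and 13.3% called lower of all genes tested. The same shares apply to the counts of families and smaller groups below. Amino acid carriers had 6 called higher and 9 lower of 31 tested, with a median log2 fold change of -0.86. Monocarboxylate carriers had 4 higher and 2 lower of 7, organic ion carriers 7 and 2 of 15, and sugar carriers 5 and 4 of 12. The remaining carriers, for peptides, vitamins, nucleosides and fatty acids, had 7 higher and 2 lower of 18. Of the 14 zinc carriers tested 1 was called, and of the 3 phosphate carriers 1. Among the 27 families, 6 held members called in opposite directions, a count that was not made for other gene families.

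**Figure D1:**
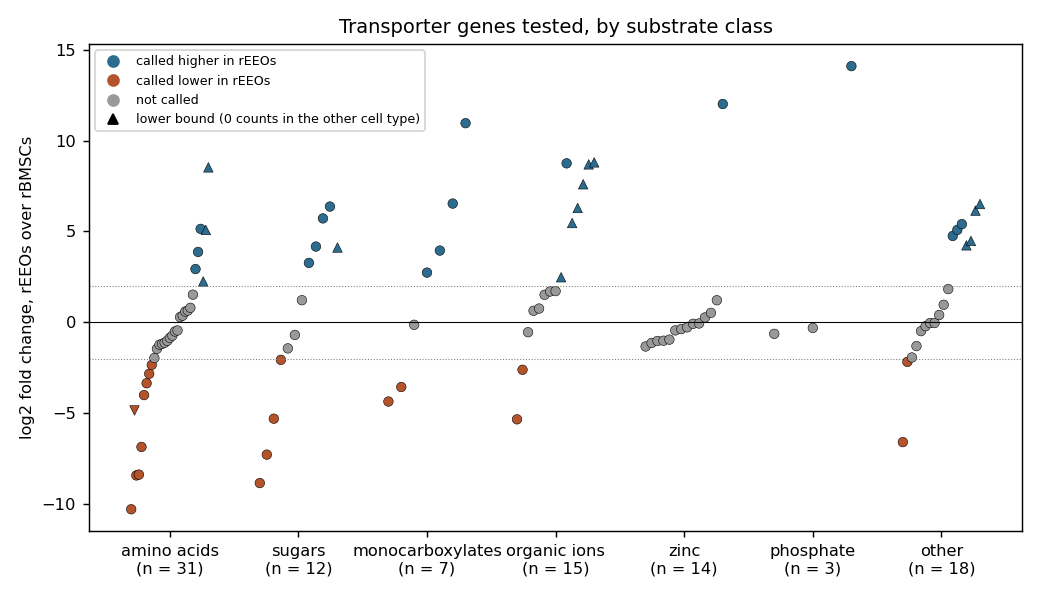
Each point is 1 of the 100 transporter genes tested, grouped by substrate class along the x axis, and the y axis is the log2 fold change of rEEOs over rBMSCs. Dotted lines mark log2 fold changes of -2 and 2, triangles mark lower bounds for genes with 0 counts in every library of the other cell type, and the zinc class shows 1 called gene among 14.

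The most abundant carriers of each cell type were different sets apart from 4 genes. The 10 highest mean levels in rBMSCs were those of Slc3a2, Slc6a6, Slc38a2, Slc7a5, Slc39a7, Slc1a4, Slc39a1, Slc1a5, Slco2a1 and Slc20a1. In rEEOs they were those of Slc39a4, Slc2a1, Slc3a2, Slc39a7, Slc34a2, Slc7a7, Slc16a1, Slc1a5, Slc16a3 and Slc39a1. Slc3a2, Slc39a7, Slc39a1 and Slc1a5 stood in both. Neighbours at the top of the rEEOs order did not differ beyond their spread, with Slc39a4 at 363 ± 172 TPM, Slc2a1 at 265 ± 111 TPM and Slc3a2 at 225 ± 19.7 TPM (SD, n = 3).

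Summed over a class, amino acid carriers took most of the transporter transcript in rBMSCs and much less of it in rEEOs. Their summed level was 2339, 2173 and 2287 TPM in the 3 rBMSCs libraries and 1351, 660 and 776 TPM in the 3 rEEOs libraries, which is 62.9% and 29.3% of the summed level of the whole set. Monocarboxylate carriers summed to 58.9, 51.0 and 64.0 TPM in rBMSCs and 403, 353 and 292 TPM in rEEOs. Sugar carriers summed to 118, 109.8 and 126 TPM in rBMSCs and 337, 205 and 441 TPM in rEEOs, where Slc2a1 alone made up 81.0% of the mean. In these 3 classes, and in the phosphate class given next, the libraries of the cell types did not overlap. How often sums of other gene sets fail to overlap was not examined, and by adjusted p alone 63.4% of all genes tested differed.

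Phosphate carriers summed to 95.1, 102 and 105 TPM in rBMSCs and 419, 193 and 183 TPM in rEEOs. Zinc carriers summed to 679, 655 and 686 TPM in rBMSCs and 1239, 641 and 718 TPM in rEEOs, so that rEEOs replicate 2 lay below every rBMSCs library. Organic ion carriers summed to 221 ± 11.3 TPM in rBMSCs and 260 ± 64.5 TPM in rEEOs (SD, n = 3), within the spread of rEEOs. The whole set summed to 3602 ± 122 TPM in rBMSCs and 3169 ± 990 TPM in rEEOs. Sums are in TPM, without the TMM scaling that the fold changes use. The median log2 fold change of the genes tested was 0.08 with that scaling and -0.22 in limma on log2(TPM + 1). Such sums were not tested, since the smallest p that exact permutation of 3 and 3 libraries allows is 0.1.

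**Figure D2:**
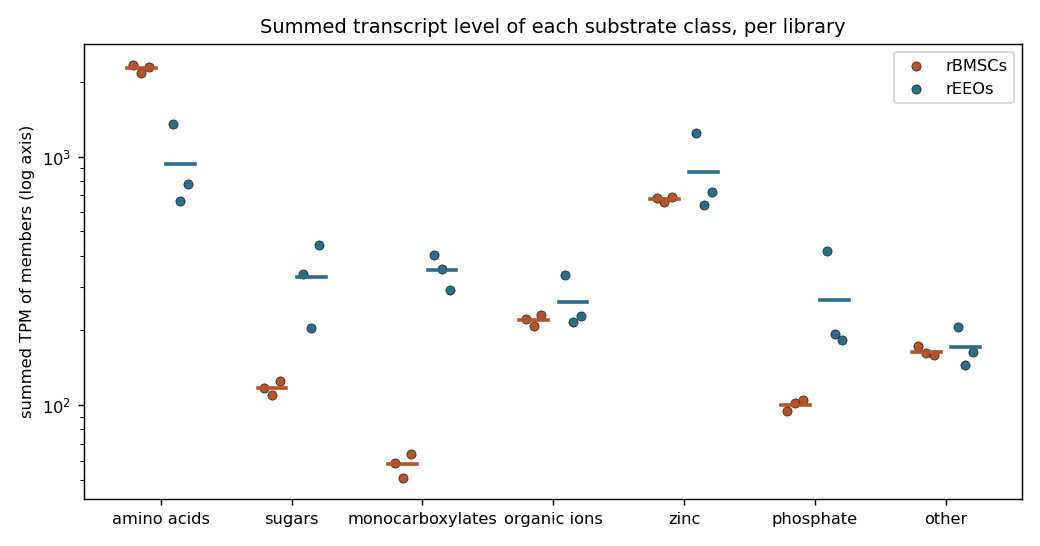
The y axis is the summed TPM of the members of each substrate class on a log scale, with 1 point for each of the 3 rBMSCs and 3 rEEOs libraries and a bar at the mean. Amino acid carriers stood at 2266 and 929 TPM on average and monocarboxylate carriers stood at 57.9 and 349 TPM, while the zinc, organic ion and other classes overlapped.

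Most transporters were highest in rEEOs replicate 1. That library held the highest rEEOs level of 75 of the 100 members tested and of 66.2% of all genes tested that were read in rEEOs, and of all 14 tested zinc carriers. The median ratio of the highest to the lowest library was 2.30 in rEEOs and 1.16 in rBMSCs. Without it, the members called were the same 50 plus Slc23a2, Slc38a4 and Slc39a8, all lower in rEEOs.

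Amino acid carriers are described first. The most abundant was Slc3a2, the heavy chain that carries light chains of the Slc7 family to the plasma membrane. It stood at 447, 461 and 446 TPM in rBMSCs and 239, 202 and 233 TPM in rEEOs. The cell types did not overlap, and the log2 fold change was -0.74 (SE 0.16, adjusted p = 0.00634), below the fold threshold. Scaled by library size only it did not pass, at -0.37 (adjusted p = 0.0662).

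The 6 light chains that pair with heavy chains split, with 3 called higher and 1 lower. Slc7a5, which exchanges large neutral amino acids such as leucine, stood at 369.8, 369 and 379.7 TPM in rBMSCs and 60.8, 12.1 and 26.6 TPM in rEEOs, a log2 fold change of -3.36 (SE 0.46, adjusted p = 0.000969). Slc7a8, a paralog that also takes neutral amino acids, was at 0.15, 0.11 and 0.15 TPM in rBMSCs and 2.54, 5.92 and 3.34 TPM in rEEOs, a log2 fold change of 5.14 (SE 0.56, adjusted p = 0.000378). The pair thus moved in opposite directions, and the level of Slc7a8 in rEEOs stayed below that of Slc7a5.

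Slc7a7 and Slc7a6 both exchange cationic for neutral amino acids. Slc7a7 stood at 10.1, 11.1 and 11.2 TPM in rBMSCs and 262, 86.6 and 137 TPM in rEEOs, and was 14.6-fold higher (log2 fold change 3.87, SE 0.30, adjusted p = 8.54e-05). Slc7a6 stood at 29.9 ± 1.71 TPM in rBMSCs and 11.2 ± 5.80 TPM in rEEOs (SD, n = 3), a log2 fold change of -1.24 (SE 0.23, adjusted p = 0.00377). The more abundant of these paralogs was therefore Slc7a6 in rBMSCs and Slc7a7 in rEEOs. Slc7a11, the light chain of the cystine and glutamate exchanger, passed the test at a log2 fold change of 0.64 (SE 0.22, adjusted p = 0.0405), and its libraries overlapped. Slc7a11 did not pass in limma on log2(TPM + 1) (adjusted p = 0.645) or without rBMSCs replicate 1, 2 or 3 (0.0926, 0.133 and 0.0758). Slc7a9, which exchanges cystine and cationic amino acids in kidney and gut, had 0 counts in rBMSCs and reached 0.82, 0.44 and 0.77 TPM in rEEOs, at least 4.74-fold higher (adjusted p = 0.00148). Its heavy chain Slc3a1 was too low to test.

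Where every library of a cell type had 0 counts, the fold is a bound against 3 counts in each library, and where it had a few counts, at most 3 in each library, it is a ratio with an exact 95% interval. Both cover counting error only. Of the members called higher, 14 had 0 counts in all rBMSCs libraries, and of those called lower 1 had 0 in all rEEOs libraries.

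Of 4 carriers for cationic amino acids and their relatives, 2 were called lower and 1 higher. Slc7a2, which brings arginine into cells, stood at 37.6, 22.8 and 35.8 TPM in rBMSCs and 0.04, 0 and 0 TPM in rEEOs, 1477-fold lower (interval 408 to 12201, adjusted p = 2.34e-05). Slc7a3, a paralog, stood at 14.0, 14.4 and 14.1 TPM in rBMSCs and 0.04, 0 and 0.29 TPM in rEEOs, a log2 fold change of -6.87 (SE 0.76, adjusted p = 0.00039) and of -9.12 without rEEOs replicate 3. Slc7a1, the general arginine and lysine carrier, was at 31.7 ± 2.93 TPM in rBMSCs and 12.9 ± 11.6 TPM in rEEOs (SD, n = 3) and did not pass (adjusted p = 0.0648). Its log2 fold change of -1.19 became -1.90 without rEEOs replicate 1, and it then passed (adjusted p = 0.000251). Slc7a4, a relative whose substrate is unclear, had 0 counts in rBMSCs and stood at 5.38, 3.58 and 2.35 TPM in rEEOs, at least 33.8-fold higher (adjusted p = 0.000426).

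Of the sodium- and chloride-coupled Slc6 family, 1 gene was called higher and 3 lower of 5 tested, against 16.3% and 13.3% of all genes tested. Slc6a14, which concentrates neutral and cationic amino acids in epithelia, had 0 counts in rBMSCs and stood at 119, 11.7 and 29.9 TPM in rEEOs, at least 368-fold higher (adjusted p = 0.00307) and at least 181-fold without rEEOs replicate 1. Its 3 rEEOs libraries spread widely, with a mean of 53.5 ± 57.3 TPM (SD, n = 3), and replicate 1 was the highest. Slc6a6, the taurine transporter, stood at 401, 346 and 407 TPM in rBMSCs and 49.4, 7.72 and 9.48 TPM in rEEOs. It was 16.2-fold lower (log2 fold change -4.01, SE 0.62, adjusted p = 0.00169), and without rEEOs replicate 1 the log2 fold change was -4.96.

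Slc6a9, a glycine transporter, stood at 71.2, 64.1 and 58.2 TPM in rBMSCs and 13.9, 6.91 and 11.7 TPM in rEEOs, a log2 fold change of -2.35 (SE 0.21, adjusted p = 0.000151). Slc6a7, a proline transporter, was at 1.99, 2.86 and 2.36 TPM in rBMSCs with 0 counts in rEEOs, at least 28.8-fold lower (adjusted p = 0.000275). Slc6a8, which imports creatine, was at 24.8 ± 0.775 TPM in rBMSCs and 25.3 ± 9.55 TPM in rEEOs (SD, n = 3) and did not pass (adjusted p = 0.448).

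Of the Slc1 family, Slc1a3, a glutamate and aspartate transporter, stood at 10.8, 9.27 and 9.81 TPM in rBMSCs and 0.02, 0 and 0.05 TPM in rEEOs, 389.9-fold lower (interval 133 to 1893, adjusted p = 2.59e-05). Slc1a4, which takes alanine, serine and cysteine, stood at 180.3, 167 and 178 TPM in rBMSCs and 36.5, 14.1 and 14.8 TPM in rEEOs, a log2 fold change of -2.84 (SE 0.27, adjusted p = 0.000199). Slc1a5, the glutamine exchanger, was at 90.5 ± 1.89 TPM in rBMSCs and 117 ± 44.2 TPM in rEEOs (SD, n = 3), with overlapping libraries and a log2 fold change of 0.58 (SE 0.18, adjusted p = 0.0266). Slc1a5 did not pass in limma on log2(TPM + 1) (adjusted p = 0.336) or with a replicate block (0.0568). Nor did it pass without rBMSCs replicate 1, 2 or 3 (0.0948, 0.081 and 0.0866).

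Of the Slc38 family, which couples neutral amino acids such as glutamine to sodium, 7 were tested and 1 was called. Slc38a1 stood at 3.86, 4.50 and 4.42 TPM in rBMSCs and 67.6, 15.9 and 19.4 TPM in rEEOs, a log2 fold change of 2.93 (SE 0.39, adjusted p = 0.00087). Slc38a2, the paralog that rises when amino acids are short, stood at 420.3, 358 and 364 TPM in rBMSCs and 99.4, 63.7 and 84.6 TPM in rEEOs. Its log2 fold change of -1.97 (SE 0.16, adjusted p = 0.000116) lay just short of the threshold and was called at -2.07 without rEEOs replicate 3 and at -2.01 without rBMSCs replicate 3. Slc38a4 differed by a log2 fold change of -1.47 with an adjusted p of 0.175, and of -3.27 with an adjusted p of 0.000237 without rEEOs replicate 1, the library in which it stood at 5.30 TPM against 0.60 and 0.25 TPM in the others.

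Slc36a4, which carries proline and tryptophan, stood at 22.8, 18.95 and 21.7 TPM in rBMSCs and 0.03, 0.11 and 0.08 TPM in rEEOs, 355-fold lower (interval 180.0 to 823, adjusted p = 5.16e-06). Its paralog Slc36a1, which exports amino acids from lysosomes, was at 7.09 ± 0.786 and 3.53 ± 3.54 TPM (SD, n = 3) and did not pass (adjusted p = 0.191). Without rEEOs replicate 1 it passed at -1.73 (adjusted p = 0.000346). Slc7a6os, which the symbol rule includes, is not a carrier but the gene on the strand opposite Slc7a6. It did not pass (adjusted p = 0.225), and whether counting used strand is not given in the sources used here.

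**Figure D3:**
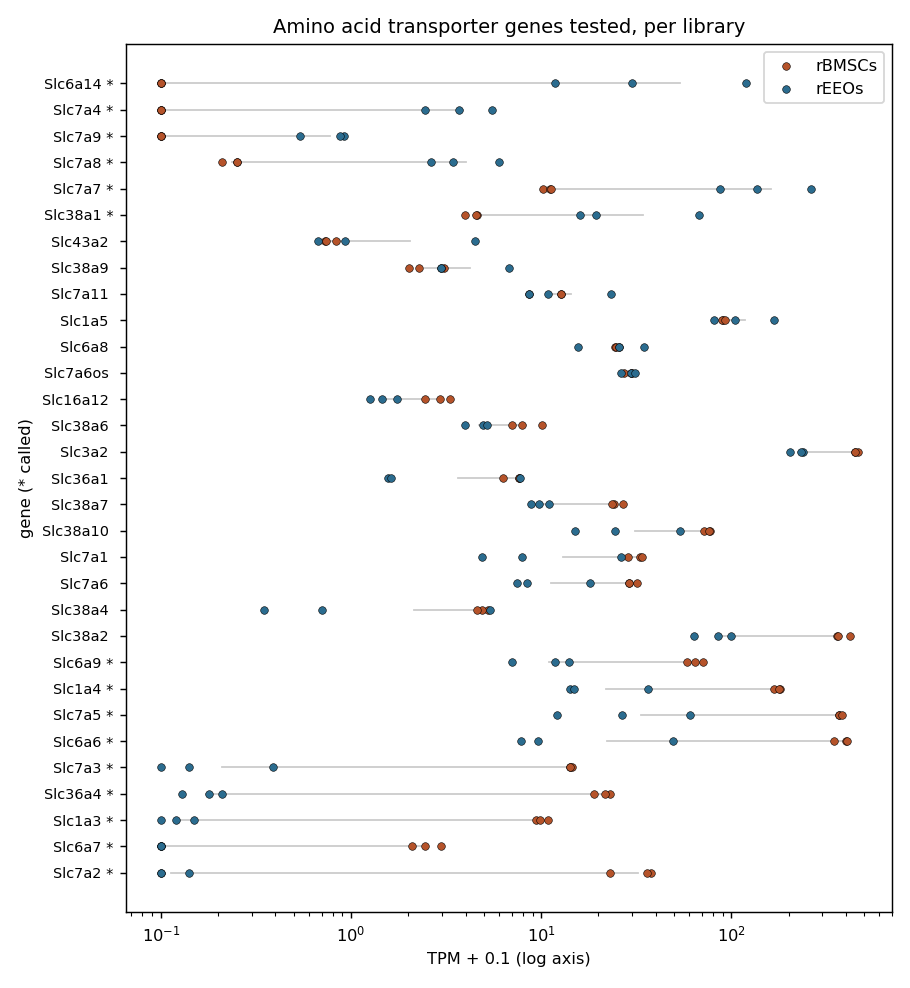
Each row is 1 of the 31 amino acid genes tested, ordered by log2 fold change, and the x axis is TPM + 0.1 on a log scale, with 1 point for each library, a grey line between the means and an asterisk where called. The abundant rBMSCs carriers Slc6a6, Slc7a5 and Slc1a4 lie near the bottom, and Slc6a14 and Slc7a7, called higher in rEEOs, near the top.

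Genes induced with Atf4, the transcription factor of the amino acid response that drives several of these carriers, did not move one way. Of 25 listed, 17 were held and tested, with 3 called higher (17.6%, against 16.3% of all genes tested) and 3 lower (17.6%, against 13.3%). Their median log2 fold change was -0.34. Atf4 itself stood at 743 ± 4.202 TPM in rBMSCs and 767 ± 212 TPM in rEEOs (SD, n = 3, adjusted p = 0.357). Higher were Atf3, another stress transcription factor, at 3.70 and 396 TPM, Cebpb at 81.2 and 294 TPM, and Cbs, a cysteine synthesis enzyme, at 0 and 22.6 TPM.

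Lower in rEEOs were Mthfd2, a mitochondrial folate enzyme, with a log2 fold change of -2.33, the lipoprotein receptor Vldlr at -2.23 and the secreted factor Stc2 at -5.33. The serine synthesis genes split, with Phgdh at -0.52 and Psat1 at -0.97, both past the test, and Psph at 1.47. The proline synthesis genes Aldh18a1, at -1.16, and Pycr1, at -0.74, passed without reaching the fold threshold, as did the amino acid sensor kinase Eif2ak4 at 0.77. Asns at -0.20, Chac1 at -1.47, Nupr1 at -0.34 and Cebpg at -0.18 did not pass.

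Sugar carriers were led by Slc2a1, the basal glucose transporter. It stood at 32.6, 33.8 and 34.2 TPM in rBMSCs and 227, 178 and 391 TPM in rEEOs, 9.61-fold higher (log2 fold change 3.26, SE 0.36, adjusted p = 0.00041). It was the sugar carrier with the highest mean in rEEOs, and the cell types did not overlap. In rBMSCs the highest mean was that of Slc2a12, an insulin-responsive glucose transporter, at 38.4, 30.5 and 40.1 TPM, a spread that takes in Slc2a1. In rEEOs Slc2a12 was at 48.6, 4.11 and 11.6 TPM, and it did not pass (log2 fold change -0.70, SE 0.68, adjusted p = 0.396). Without rEEOs replicate 1, its log2 fold change was -1.78 (adjusted p = 0.00637).

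Paralogs in the Slc2 family moved in opposite directions, with 2 called higher and 4 lower of 8 tested, against 16.3% and 13.3% of all genes tested. Slc2a6, a lysosomal member, stood at 0.05, 0.19 and 0.05 TPM in rBMSCs and 8.76, 2.11 and 4.52 TPM in rEEOs, a log2 fold change of 5.71 (SE 0.72, adjusted p = 0.000689) and of 6.82 without rBMSCs replicate 2. Slc2a10, which serves vascular and connective tissue, stood at 6.09, 5.47 and 5.58 TPM in rBMSCs and 0, 0 and 0.02 TPM in rEEOs, 640.5-fold lower (interval 115 to 25336, adjusted p = 4.33e-05). Slc2a3, the neuronal glucose transporter, stood at 1.66, 2.78 and 6.98 TPM in rBMSCs and 0.27, 0.04 and 0 TPM in rEEOs, a log2 fold change of -5.31 (SE 0.86, adjusted p = 0.00201) and of -6.67 without rEEOs replicate 1. Its expected counts in rBMSCs were fractional, at 68.75, 121.95 and 198.93, so some of its reads were shared with other genes and its values are uncertain.

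Slc2a9, a urate transporter, was at 4.99 ± 0.418 TPM in rBMSCs and 1.06 ± 0.787 TPM in rEEOs (SD, n = 3). Its log2 fold change of -2.07 (SE 0.40, adjusted p = 0.00432) lay at the threshold and was -1.77 without rEEOs replicate 2 and -1.94 without rEEOs replicate 3, both uncalled. Slc2a8, an intracellular member, passed the test at a log2 fold change of -1.44 (SE 0.24, adjusted p = 0.00245).

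Carriers of inositol changed places. Slc2a13, which couples myo-inositol to protons, stood at 10.5, 9.48 and 11.98 TPM in rBMSCs and 0.09, 0 and 0.08 TPM in rEEOs, a log2 fold change of -7.29 (SE 0.58, adjusted p = 0.0001). Slc5a3, which couples myo-inositol to sodium, stood at 1.17, 0.73 and 1.09 TPM in rBMSCs and 17.4, 9.76 and 18.3 TPM in rEEOs, a log2 fold change of 4.16 (SE 0.32, adjusted p = 8.05e-05). Slc5a1, the sodium-coupled glucose transporter of gut and kidney, had 0 counts in rBMSCs and stood at 4.02, 0.95 and 1.17 TPM in rEEOs, at least 17.7-fold higher (adjusted p = 0.00282) and at least 11.3-fold without rEEOs replicate 1. Slc45a3 rested on 1 count in rBMSCs and was 122-fold higher (interval 21.4 to 4847, adjusted p = 0.00265), and Slc45a4 passed the test at 1.21 (SE 0.41, adjusted p = 0.0373). Slc45a4 did not pass in limma on log2(TPM + 1) (adjusted p = 0.234).

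Of 17 listed genes of sugar use after entry, 13 were held and 12 tested. Of these, 2 were called higher and 1 lower, 25% against 29.7% of all genes tested, with a median log2 fold change of 0.79. Khk, which phosphorylates fructose, was at 1.46 TPM in rBMSCs and 9.15 TPM in rEEOs (log2 fold change 2.92), and Arrdc4, a glucose-responsive gene, at 7.40 and 26.5 TPM (2.09). Sord, which makes fructose from sorbitol, was at 35.8 and 1.49 TPM (-4.34). Hexokinase Hk2 at 1.63, and Galk1 and Galt of galactose use, at 0.53 and 1.22, passed the test below the fold threshold. Hk1 at -0.51, Galk2 at 0.41, Galm at -0.31 and Ppp1r3c at -0.06 did not pass.

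Monocarboxylate carriers move lactate, pyruvate and ketone bodies with protons. Slc16a1, which works in both directions, stood at 28.7, 27.5 and 31.4 TPM in rBMSCs and 175, 174 and 115 TPM in rEEOs, 6.63-fold higher (log2 fold change 2.73, SE 0.23, adjusted p = 0.000132). Slc16a3, the lactate exporter of glycolytic cells, stood at 1.21, 0.98 and 1.33 TPM in rBMSCs and 122.6, 64.3 and 86.8 TPM in rEEOs, 92.4-fold higher (log2 fold change 6.53, SE 0.21, adjusted p = 5.16e-06). Slc16a7, a high-affinity pyruvate carrier, stood at 26.1, 20.1 and 28.2 TPM in rBMSCs and 2.2, 0.17 and 0.80 TPM in rEEOs. It was lower by a log2 fold change of -4.37 (SE 0.67, adjusted p = 0.00166), and of -5.13 without rEEOs replicate 1.

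Slc16a11 and Slc16a13, close relatives with little known substrates, were both higher. Slc16a11 stood at 0, 0 and 0.12 TPM in rBMSCs and 87.96, 90.2 and 70.2 TPM in rEEOs, 2313-fold higher (interval 640.0 to 19107, adjusted p = 2.18e-05). Slc16a13 stood at 1.92, 0.94 and 1.67 TPM in rBMSCs and 15.1, 23.3 and 17.8 TPM in rEEOs, a log2 fold change of 3.94 (SE 0.41, adjusted p = 0.000311). In both genes the lowest rEEOs library lay above the highest rBMSCs library.

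Slc16a9, which carries carnitine and creatine, was at 0.483 ± 0.1504 TPM in rBMSCs and 0.03 ± 0.0173 TPM in rEEOs (SD, n = 3), 13.03-fold lower (interval 4.79 to 49.6, adjusted p = 0.0015). Slc16a4 did not pass (log2 fold change -0.14, SE 0.45, adjusted p = 0.795).

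A list of chaperones, scaffolds and membrane peptidases was taken as possible partners of carriers. Of its 11 symbols, some of them synonyms, 6 were held and 4 tested. All 4 were called higher, against 16.3% of all genes tested. Emb, a chaperone of some Slc16 carriers, stood at 38.9, 35.4 and 36.9 TPM in rBMSCs and 499.7, 297 and 516 TPM in rEEOs (log2 fold change 3.81, SE 0.23, adjusted p = 3.27e-05). Slc9a3r1, a scaffold at the apical membrane, was at 29.4 ± 1.74 and 270.1 ± 201 TPM (SD, n = 3, adjusted p = 0.000503). The membrane peptidases Dpp4 and Tmprss2 were at 0.0533 and 8.32 TPM and at 0.01 and 92.4 TPM. Tmem27 and Pdzk1 were too low to test.

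Organic ion carriers included several with no counts in rBMSCs. Of the 15 tested, 7 were called higher, and 6 of these had 0 counts in every rBMSCs library. Slc44a4, a choline-like transporter of epithelia, stood at 84.0, 36.4 and 46.3 TPM in rEEOs and was at least 445-fold higher (adjusted p = 7.08e-05). Slc17a4, an organic anion carrier of the gut, stood at 17.7, 44.95 and 37.2 TPM and was at least 413-fold higher (adjusted p = 0.000954). Slc13a2, the sodium-coupled citrate carrier, stood at 27.1, 16.8 and 23.6 TPM and was at least 193-fold higher (adjusted p = 5.8e-05).

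Slc17a1, a urate and organic anion carrier of kidney, stood at 3.11, 11.5 and 10.95 TPM in rEEOs and was at least 44.004-fold higher (adjusted p = 0.00412). In Slc17a4 and Slc17a1 rEEOs replicate 1 was the lowest of the rEEOs libraries, in contrast with most members. Slc22a4, which carries ergothioneine, rested on 1 count in rBMSCs and stood at 26.02, 9.47 and 12.2 TPM in rEEOs, 616-fold higher (interval 110.1 to 24353, adjusted p = 8.97e-05). Its relative Slc22a5, the carnitine transporter, passed the test at 1.69 (SE 0.19, adjusted p = 0.000425), and part of its reads were shared with other genes.

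The choline-like family split between the cell types. Slc44a3 had 0 counts in rBMSCs and stood at 11.8, 9.29 and 6.71 TPM in rEEOs, at least 78.1-fold higher (adjusted p = 0.000147). Slc44a2 stood at 75.5, 72.0 and 77.4 TPM in rBMSCs and 12.3, 7.09 and 11.9 TPM in rEEOs, a log2 fold change of -2.62 (SE 0.19, adjusted p = 7.12e-05). Slc44a1, the most widely expressed member, stood at 18.9, 18.7 and 20.2 TPM in rBMSCs and 90.9, 29.2 and 27.4 TPM in rEEOs, a log2 fold change of 1.71 (SE 0.32, adjusted p = 0.0041). It was 1.28 without rEEOs replicate 1 and did not pass in limma on log2(TPM + 1), with a difference of 1.08 (adjusted p = 0.0817).

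The 2 Slco genes also went opposite ways. Slco2a1, the prostaglandin transporter, stood at 89.5, 82.3 and 95.9 TPM in rBMSCs and 3.47, 1.32 and 1.27 TPM in rEEOs, 40.7-fold lower (log2 fold change -5.35, SE 0.26, adjusted p = 1.65e-05). Slco1a5, which carries bile acids and steroid conjugates, had 0 counts in rBMSCs and stood at 0.68, 0.35 and 0.51 TPM in rEEOs, at least 5.56-fold higher (adjusted p = 0.00139). Slc22a18 (1.51, adjusted p = 0.00266) and the lysosomal sialic acid exporter Slc17a5 (0.63, adjusted p = 0.00551) passed below the fold threshold. Slc17a5 did not pass in limma on log2(TPM + 1) (adjusted p = 0.178). Slc22a17 and Slc22a15 did not pass.

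Enzymes that use creatine, taurine, carnitine, choline and arginine were also listed. Of 25, 21 were held and 20 tested, with 8 called higher and 2 lower, and a median log2 fold change of 0.60. That was 40% higher and 10% lower, against 16.3% and 13.3% of all genes tested. The creatine genes Ckmt1b, at 0 and 237 TPM and at least 1233-fold higher, and Gatm, at 6.93 and 46.1 TPM, were higher in rEEOs, whereas Gamt at 0.29 and Ckb at 0.26 did not pass. The arginine genes Ass1, at 0.0233 and 279 TPM, Arg2, at 0.0267 and 91.9 TPM, and Arg1, at 0.233 and 1.40 TPM, were higher. Of the carriers of cationic amino acids, Slc7a2 and Slc7a3 were called lower and Slc7a7, Slc7a9 and Slc6a14 higher. Slc7a6 passed downward below the fold threshold, and Slc7a1 did not pass. Odc1, the first enzyme of polyamine synthesis, passed at -0.63, and Asl at 0.47 did not.

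Among choline genes, Chdh, which oxidizes choline, was at 0.08 and 51.6 TPM, Gpcpd1 at 4.73 and 56.7 TPM, and the kinase Chkb at 13.7 and 46.2 TPM, all called higher. Chka passed at 1.87, Pcyt1b was lower at -2.88, and Aldh7a1 at -0.20 did not pass. Of the taurine genes, Cdo1 was lower at -3.66 and Csad at -0.69 did not pass (adjusted p = 0.0765), beside the lower taurine carrier Slc6a6. Of the carnitine genes, Crat passed at -0.47, and Crot at -0.43 and Cpt1a at 0.72 did not.

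Phosphate carriers comprised 3 genes. Slc34a2, the sodium-coupled carrier of lung and other secretory epithelia, stood at 0, 0.03 and 0 TPM in rBMSCs and 327, 155 and 132 TPM in rEEOs. It was 24999-fold higher (interval 4486 to 987436, adjusted p = 1.11e-05), a ratio that rests on 1 count in rBMSCs. The widely expressed carriers differed less. Slc20a1 stood at 79.7, 85.3 and 87.3 TPM in rBMSCs and 73.8, 32.3 and 39.6 TPM in rEEOs, a log2 fold change of -0.64 (SE 0.21, adjusted p = 0.0354). It did not pass when only library size was used, without TMM scaling factors (-0.25, adjusted p = 0.381). Nor did it pass without rBMSCs replicate 1, 2 or 3 (adjusted p = 0.0754, 0.101 and 0.0992) or without rEEOs replicate 2 or 3 (0.0892 and 0.107). Slc20a2 stood at 15.4, 16.8 and 17.6 TPM in rBMSCs and 18.1, 5.86 and 11.8 TPM in rEEOs, and did not pass (log2 fold change -0.32, SE 0.29, adjusted p = 0.361), a sign that turned to 0.08 when only library size was used.

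Zinc carriers fall into the Slc39 importers, which raise zinc in the cytosol, and the Slc30 exporters, which lower it. Of 8 importers tested 1 was called, and of 6 exporters none by edgeR, with 1 higher and 3 lower at an unadjusted p below 0.05. DESeq2, which also tested the low exporter Slc30a2, called that gene higher in rEEOs (log2 fold change 4.88, adjusted p = 0.0214) and none of the other 6. The background was 29.7% of all genes. By adjusted p alone 3 of the 14 were higher and 6 lower, with a median log2 fold change of -0.33. When only library size was used, the median of all genes moved from 0.08 to 0.46. By adjusted p, 3 zinc carriers were then higher and 2 lower. With TMM scaling kept, 2 were also lower without rBMSCs replicate 1, 2 or 3, or without rEEOs replicate 2 or 3. Without rEEOs replicate 1, 7 were lower. The number passing thus depended on the scaling and on which libraries were used, and fits without a library have fewer samples. The median log2 fold change of the class depended on the scaling, at 0.05 with library size only. It stayed between -0.36 and -0.28 whichever library was left out.

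Slc39a4, the importer that takes up dietary zinc in the gut, had the highest mean level of the whole set in rEEOs, though Slc2a1 was higher in replicate 3. It stood at 0.24, 0.05 and 0 TPM in rBMSCs and 559, 237 and 293 TPM in rEEOs, a log2 fold change of 12.01 (SE 0.68, adjusted p = 2.61e-05) and of 13.77 without rBMSCs replicate 1. It made up 41.9% of the summed zinc carrier level in rEEOs. Slc39a7, which releases zinc from the endoplasmic reticulum, stood at 256, 261 and 249.6 TPM in rBMSCs and 238, 190.3 and 188 TPM in rEEOs and did not pass (log2 fold change -0.09, SE 0.13, adjusted p = 0.556), a sign that turned to 0.29 with library size only. Slc39a1, a plasma membrane importer, stood at 137, 133 and 136 TPM in rBMSCs and 128, 59.5 and 62.7 TPM in rEEOs, a log2 fold change of -0.45 (SE 0.16, adjusted p = 0.0485). It no longer passed with library size only, with DESeq2 size factors (adjusted p = 0.0515) or with either other filter. The same held when any library other than rEEOs replicate 1 was left out.

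Slc39a11 (1.21, adjusted p = 0.00131) and Slc30a9 (0.51, adjusted p = 0.00941) passed upward below the fold threshold. Neither passed in limma on log2(TPM + 1) (adjusted p = 0.0946 and 0.426). Slc39a6 (-1.02, adjusted p = 0.00368), Slc39a10 (-1.15, adjusted p = 0.00466), Slc30a7 (-1.04, adjusted p = 0.0308), Slc30a4 (-0.96, adjusted p = 0.0433) and Slc30a5 (-0.38, adjusted p = 0.0488) passed downward. Slc30a1, the plasma membrane exporter that cells raise when zinc is high, stood at 11.5, 8.95 and 11.9 TPM in rBMSCs and 20.4, 5.64 and 8.81 TPM in rEEOs and did not pass (log2 fold change 0.26, SE 0.34, adjusted p = 0.528). Slc39a8 was called lower only without rEEOs replicate 1 (-3.06, adjusted p = 0.0109).

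Metallothioneins, small proteins that bind zinc and are induced by it, were called higher in rEEOs. Mt1 stood at 0, 1.02 and 1.17 TPM in rBMSCs and 5228, 4356 and 11990.4 TPM in rEEOs, 12412-fold higher (interval 3436 to 102492, adjusted p = 5.26e-05). Mt2A stood at 5.03, 0 and 2.48 TPM in rBMSCs and 11568, 6302 and 9692 TPM in rEEOs, a log2 fold change of 12.18 (SE 0.59, adjusted p = 1.61e-05). Both were lowest in rEEOs replicate 2, and reads of near-identical metallothionein copies may be split among them. Mt3 was too low to test, and Mtf2 did not pass (0.15, adjusted p = 0.408).

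**Figure D4:**
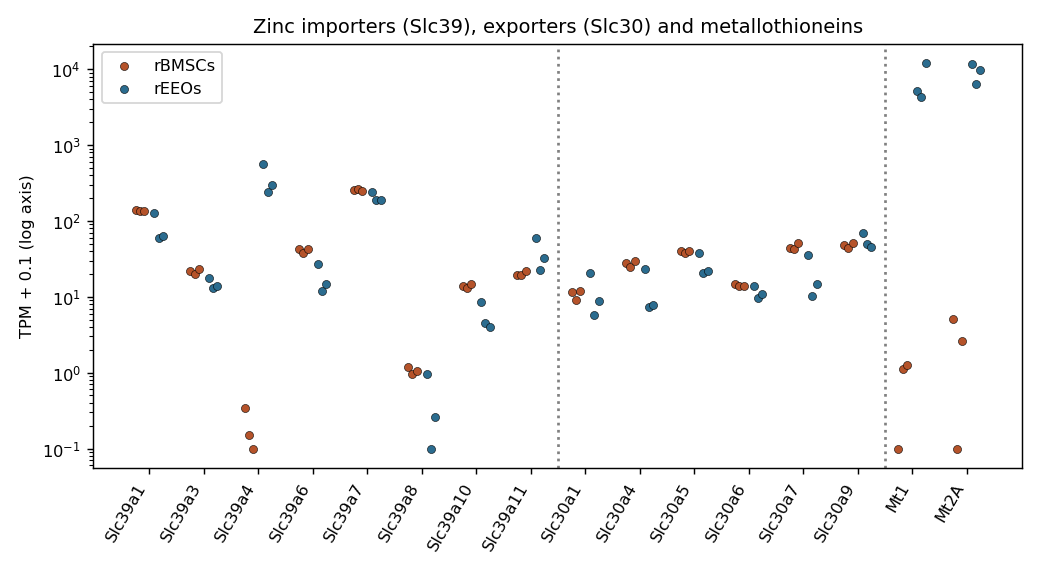
The y axis is TPM + 0.1 on a log scale, with 1 point for each library of rBMSCs and rEEOs, for the zinc importers and exporters tested and for Mt1 and Mt2A, separated by dotted lines. Slc39a4 reaches 559 TPM in rEEOs from at most 0.24 TPM in rBMSCs, and Mt1 and Mt2A stand at 4356 TPM or more there, whereas the other carriers plotted have log2 fold changes between -1.34 and 1.21.

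Metallothionein genes and Slc30a1 are textbook targets of the metal-responsive transcription factor, which binds elements with the core TGCGCNC. Promoters of 300 bases were taken from the RefSeq table of the GRCr8 build and searched on both strands for this core, counting overlapping matches. It was found in 7 of 14 promoters matched to zinc carriers (50%), in 24.5% of 98 promoters matched to members, in 27.6% of those of all genes tested and in 15% of 27457 promoters. The median GC content of these groups was 64.7%, 61.3%, 61.0% and 52.3%, and its part in the shares was not tested. The zinc carriers with a match were Slc30a1, Slc30a2, Slc30a4, Slc30a5, Slc39a1, Slc39a11 and Slc39a7. Slc30a2 was too low to be tested by edgeR, and the other 6 were not called between the cell types by edgeR.

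Promoters are shown for Slc30a1, for Slc39a7 as the carrier with the most matches, and for Mt1 and Mt2A, which were called higher in rEEOs, from 5′ to 3′ with matches on either strand in capitals. Slc30a1 lies at chr13:106021769-106022068 on the + strand, Slc39a7 at chr20:4824809-4825108 on the + strand, Mt1 at chr19:10832926-10833225 and Mt2A at chr19:10838659-10838958, both on the - strand.
Slc30a1: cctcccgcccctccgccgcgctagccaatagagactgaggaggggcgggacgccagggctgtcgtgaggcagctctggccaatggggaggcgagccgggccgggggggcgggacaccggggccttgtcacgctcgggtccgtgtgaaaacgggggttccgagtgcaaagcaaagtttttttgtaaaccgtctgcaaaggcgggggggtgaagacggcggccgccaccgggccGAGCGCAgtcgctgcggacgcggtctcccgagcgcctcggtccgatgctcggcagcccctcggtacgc
Slc39a7: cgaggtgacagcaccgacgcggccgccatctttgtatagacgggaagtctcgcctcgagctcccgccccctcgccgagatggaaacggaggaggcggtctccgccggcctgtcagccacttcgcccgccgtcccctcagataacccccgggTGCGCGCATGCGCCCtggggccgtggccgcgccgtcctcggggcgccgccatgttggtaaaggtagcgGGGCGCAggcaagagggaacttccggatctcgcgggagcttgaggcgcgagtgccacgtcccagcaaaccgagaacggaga
Mt1: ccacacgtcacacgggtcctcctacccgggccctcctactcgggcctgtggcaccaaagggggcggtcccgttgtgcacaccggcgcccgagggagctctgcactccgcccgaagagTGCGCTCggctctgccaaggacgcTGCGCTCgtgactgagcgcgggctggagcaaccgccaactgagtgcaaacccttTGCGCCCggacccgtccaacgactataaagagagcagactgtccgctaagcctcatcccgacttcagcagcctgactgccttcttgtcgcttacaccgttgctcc
Mt2A: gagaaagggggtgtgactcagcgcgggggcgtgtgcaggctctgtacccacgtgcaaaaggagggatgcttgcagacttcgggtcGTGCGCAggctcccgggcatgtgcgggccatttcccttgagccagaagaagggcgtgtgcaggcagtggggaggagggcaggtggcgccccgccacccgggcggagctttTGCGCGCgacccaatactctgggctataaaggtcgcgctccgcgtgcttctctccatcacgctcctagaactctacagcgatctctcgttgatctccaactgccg

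The Slc30a1 window holds 1 match, which starts 18 bases before the gene's start, and the Slc39a7 window 4, 2 of them overlapping. Mt1 has 3 matches, of which that nearest the start begins 55 bases before it, and Mt2A has 2, with the nearest also beginning 55 bases before. Slc30a1 and Slc39a7 did not pass the test, while both metallothioneins were called higher in rEEOs. A match describes letters in this window and not a bound site. The core of the amino acid response element, TGATGNAAT, was found in 1 of the 98 members' promoters (1.02%), that of Slc23a3. It was found in 0.49% of the promoters of all genes tested and in 1.05% of all promoters.

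Carriers of the remaining substrates were mostly higher where called. Slc15a2, a high-affinity peptide carrier, had 0 counts in rBMSCs and stood at 8.48, 1.42 and 8.25 TPM in rEEOs, at least 90.9-fold higher (adjusted p = 0.00292). Slc28a3, which concentrates nucleosides with sodium, also had 0 counts in rBMSCs and stood at 16.1, 3.78 and 4.97 TPM in rEEOs, at least 70.5-fold higher (adjusted p = 0.00129) and at least 45.7-fold without rEEOs replicate 1. Equilibrative nucleoside carriers went the other way. Slc29a1 stood at 29.3, 27.2 and 30.3 TPM in rBMSCs and 0.08, 0.22 and 0.43 TPM in rEEOs, 97.1-fold lower (log2 fold change -6.60, SE 0.50, adjusted p = 8.38e-05), and the value was -7.35 without rEEOs replicate 3.

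Slc29a3, the lysosomal nucleoside carrier, stood at 24.3, 22.8 and 25.7 TPM in rBMSCs and 6.68, 2.21 and 5.04 TPM in rEEOs, a log2 fold change of -2.18 (SE 0.31, adjusted p = 0.00114). It was -1.88 without rEEOs replicate 2 and -1.79 with library size only, and was then not called. Slc29a2 passed at -1.32 (SE 0.26, adjusted p = 0.00459), with part of its reads shared with other genes, and Slc28a2 did not pass. The nucleoside carriers thus had 1 called higher and 2 lower of 5 tested, against 16.3% and 13.3% of all genes tested.

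Vitamin carriers and relatives in their families had 4 called higher and none lower of 8 tested by edgeR or by DESeq2. In edgeR that was 50% higher, against 16.3% of all genes tested, and the 4 include the relatives Slc23a3 and Slc46a3. At an unadjusted p below 0.05 in edgeR, 6 were higher and 1 lower. Slc19a2, a thiamine carrier, stood at 0.55, 0.43 and 0.67 TPM in rBMSCs and 13.03, 16.4 and 16.2 TPM in rEEOs, 33.8-fold higher (log2 fold change 5.08, SE 0.33, adjusted p = 4.54e-05). Slc19a1, the reduced folate carrier, stood at 8.76, 10.1 and 8.53 TPM in rBMSCs and 37.3, 25.3 and 20.5 TPM in rEEOs, a log2 fold change of 1.82 (SE 0.18, adjusted p = 0.000266) that was called at 2.203 with library size only. The other folate carrier, Slc46a1, did not pass (-0.05, adjusted p = 0.829), and Slc46a3, a lysosomal relative, was at 0.387 ± 0.131 TPM in rBMSCs and 8.58 ± 0.649 TPM in rEEOs (SD, n = 3, log2 fold change 4.75, adjusted p = 5.32e-05).

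Slc23a1, an ascorbate transporter of epithelia, had 0 counts in rBMSCs and stood at 2.31, 1.82 and 1.55 TPM in rEEOs, at least 18.8-fold higher (adjusted p = 0.000319). Slc23a2, the ascorbate transporter of most other cells, passed at -1.94 (SE 0.26, adjusted p = 0.000874) and was called at -2.14 without rEEOs replicate 1 and -2.03 without rBMSCs replicate 2. Slc23a3, a relative, stood at 0.25, 0.14 and 0.42 TPM in rBMSCs and 6.15, 8.82 and 15.6 TPM in rEEOs, a log2 fold change of 5.40 (SE 0.65, adjusted p = 0.000561). Slc5a6, which carries biotin and pantothenate, passed at 0.96 (SE 0.21, adjusted p = 0.00706).

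None of 3 fatty acid transport proteins of the Slc27 family was called by edgeR or DESeq2, with 1 higher and 1 lower at an unadjusted p below 0.05. Slc27a4 stood at 31.5, 33.5 and 27.5 TPM in rBMSCs and 38.3, 31.3 and 33.0 TPM in rEEOs, with overlapping libraries and a log2 fold change of 0.40 (SE 0.14, adjusted p = 0.0492). Slc27a4 did not pass in limma on log2(TPM + 1) (adjusted p = 0.415) or without rBMSCs replicate 1, 2 or 3 (0.143, 0.0623 and 0.188). Slc27a3 passed at -0.49 (adjusted p = 0.0327), though not with library size only (adjusted p = 0.553), and Slc27a1 did not pass (adjusted p = 0.826).

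**Figure D5:**
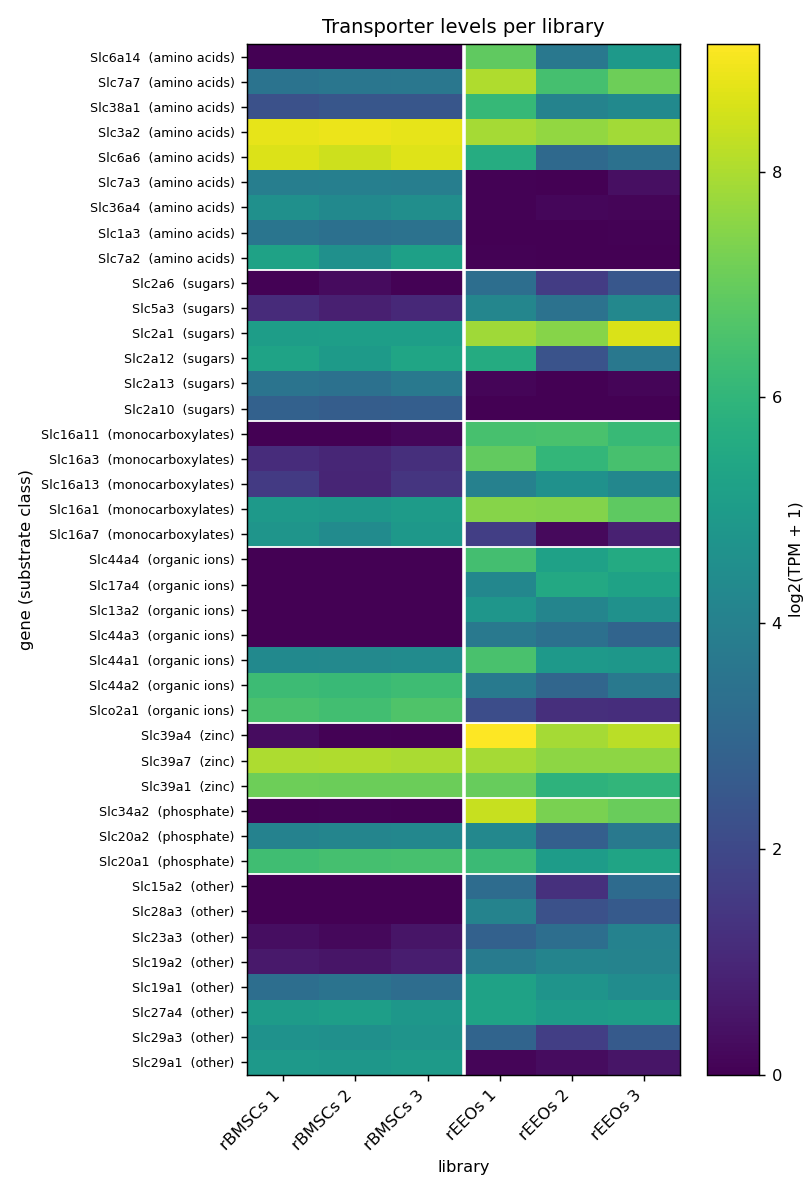
Each row is 1 of the 41 members described by rule, grouped by class, each column 1 of the 6 libraries, and the color is log2(TPM + 1). Rows that are dark in all rBMSCs columns and bright in all rEEOs columns include Slc34a2, Slc39a4 and Slc16a11, and the reverse holds for Slc7a2, Slc29a1 and Slc2a13.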

How the data were processed

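RNA of 3 rEEOs and 3 rBMSCs samples was sequenced by the authors with single-end reads. The submitters' processing notes name Trim Galore, Bowtie2 2.2.5 and the Rnor_6.0 build, and the methods name RSEM. The deposited table lists 3 values for each gene in each sample: RSEM's raw expected count, which can be fractional, and FPKM and TPM, which the authors scaled by length and depth. The authors' mean columns were not used. The copy ends within its last row, at 23 of 27 fields, with the values per sample complete, and its TPM covers 81.3% to 82.7% of a library's total.

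Expected counts were rounded, and genes reaching 10 counts in 3 or more libraries were tested with edgeR 4.0.16 (TMM, quasi-likelihood, two-sided) in R 4.3.3 with cell type as the only term. Levels are TPM. Replicates of a cell type differed by more than sampling noise, with a chi-square per degree of freedom of 3.13 or more. Bounds use 3 counts per library. The self-test ran on simulated data. Alternatives used DESeq2 1.42.0, limma 3.58.1 on TPM, other scalings, filters and fold thresholds, a replicate block and leaving out each library.

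The members and lists were chosen with earlier results of these data known. Described in full were, per class, up to 4 called members with the largest and 4 with the smallest fold change and a mean of at least 5 TPM, the 2 most abundant per cell type, paralogs with opposite calls, and from other lists the genes called or of at least 5 TPM. Promoters (RefSeq, GRCr8) matched 98 of the 117 genes. A few genes that met this rule are not reported here.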

Additional observations from a re-analysis of the deposited data

How the results depend on the processing

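Members called lower, 19, became 29 with an absolute log2 fold change above 1 and 35 by adjusted p alone. With DESeq2 or a filter of 1 count in any library, which test more genes, amino acid carriers called higher went from 6 to 11 in each and zinc carriers from 1 to 2. With a filter of 50 counts or limma on log2(TPM + 1) or log2(TPM + 0.1), which test fewer genes, monocarboxylate carriers called lower went from 2 to 1 and sugar carriers called higher from 5 to 3, and sugar carriers called lower went from 4 to 2 with log2(TPM + 1), where the pseudocount shrinks low genes. Other carriers called lower went from 2 to 1 with library size only (the cause was not tested). Leaving out a library gave 1 to 3 other carriers and 0 to 1 zinc carriers called lower, and 48 to 53 members called in all. With library size only, Slc20a2 was 0.0785 and Slc39a7 0.29, both reversed, and the median of all genes moved to 0.46, against -0.22 and -0.24 in limma on TPM.

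Replicate numbers do not pair the samples: the correlations of same-numbered deviations were 0.17, 0.19 and -0.17. With the number as a replicate block, the same 50 members were called, 31 higher and 19 lower. Over the 41 members named by the rule for fold or level and all alternatives, 568 values kept direction and side, 2 gained a call, 2 lost it and 2 reversed. Of all 50 called members, 41 to 50 stayed called in each alternative, and members outside these 41, such as Slc2a9, Slc38a2, Slc23a2, Slc38a4 and Slc39a8, changed call. Counts near 3 per library set the limit of detection.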

Other observations

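Of the 17 members too low to test, 14 had more counts in rEEOs than in rBMSCs. Slc1a6, a glutamate transporter, had 0 counts in each rBMSCs library and 290, 0 and 1 in rEEOs replicates 1, 2 and 3. Slc6a17 had 0 in rBMSCs and 132, 2 and 7 in rEEOs, Slc6a20 had 0 in rBMSCs and 46, 4 and 3, and Slc3a1, the heavy chain that pairs with Slc7a9, had 0, 1 and 1 in rBMSCs and 72, 5 and 7 in rEEOs. All 4 had most of their counts in rEEOs replicate 1, the library that stood apart. Slc16a5, by contrast, had 1, 0 and 0 in rBMSCs and 9, 10 and 24 in rEEOs.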
